A study of Homo sapiens with 6 samples.

Results

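The 49 genes described here drive and mark the cell division cycle. They were taken from a list of gene names and were split by function into 22 genes of the G1/S transition and DNA replication and 27 genes of G2, mitosis and cytokinesis. All 49 were measured, by 101 of the 41091 probe sets that carry exactly 1 gene symbol, among 19775 genes in all. Total RNA came from Caco-2, an established line derived from a human colorectal adenocarcinoma, which can differentiate toward absorptive enterocytes. Cells had received an siRNA against SDC1 (3 arrays) or a negative control siRNA (3 arrays), and the labels give one culture protocol for both. SDC1 encodes syndecan-1, a heparan sulfate proteoglycan of the epithelial cell surface. The sources used here name neither the time from transfection to harvest nor the siRNA sequences. Nothing in them says that the arrays came from separate cultures, so p-values measure only the spread between arrays, which may be technical.

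Passage from G1 into S phase is driven by E2F transcription factors and by cyclin E with CDK2, which turn on the genes that license and fire replication origins. Passage through G2 and mitosis is driven by cyclins A and B with CDK1, and many of the genes involved are held off in G0 and G1 by the DREAM complex and switched on late in the cycle by MuvB with B-Myb and FOXM1. Because most of these transcripts appear only in dividing cells, their joint level in a culture is commonly read as a measure of how many cells are cycling. In RNA from a whole culture, fewer cycling cells and less RNA per cycling cell cannot be told apart.

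Short promoter motifs were spread unevenly over the 2 classes. The cell cycle homology region (CHR) and the CCAAT box are known elements of late cell cycle promoters, and E2F sites of early ones. RefSeq promoter windows (GRCh38.p14, 250 bases before to 50 after each start site) were at hand for 38 members, 17 of G1/S and 21 of G2/M. Each was searched on both strands for the CHR letters TTTGAA, an E2F core of TTTNNCGC and the CCAAT box letters CCAAT. The CHR letters were in 14 of the 21 G2/M genes (66.7%), in 0 of the 17 G1/S genes and in 18.2% of all 27305 genes with a window. The E2F core was in 12 of the 17 G1/S genes (70.6%), in 3 of the 21 G2/M genes (14.3%) and in 8.23% of all genes. The CCAAT box was in 19 G2/M genes, 11 G1/S genes and 39.7% of all genes. Matches of different motifs may share bases at their ends and were counted separately. A match is a description of the letters and not evidence that a factor binds there. The 4 stretches below show the letters in members that are among the 6 with the lowest p of their class, although none of the 4 was at an unadjusted p under 0.05. They are read along the gene's strand with the E2F core or CHR in capitals, and CDC25A's reversed CCAAT box in lower case. They are CDC25A (chr3:48188434-48188481, minus strand), MCM7 (chr7:100101557-100101604, minus strand, with the core reversed), BUB1B (chr15:40161026-40161068, plus strand) and KIF11 (chr10:92593082-92593127, plus strand, with the CHR reversed).
CDC25A: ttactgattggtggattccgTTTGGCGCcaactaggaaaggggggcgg
MCM7: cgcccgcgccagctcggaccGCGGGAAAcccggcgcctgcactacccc
BUB1B: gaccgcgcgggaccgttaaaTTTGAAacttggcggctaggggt
KIF11: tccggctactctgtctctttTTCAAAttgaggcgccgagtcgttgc

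Each value is a log2 signal from which the middle of that probe set's own 6 arrays has been taken away. Such values compare arrays and carry no absolute level. The siRNA target SDC1 was at 0.37, 0.35 and 0.35 in control replicates 1, 2 and 3 and at -0.50, -0.62 and -0.34 in the SDC1 siRNA replicates (difference -0.84 ± 0.08, standard error; limma adjusted p = 0.0246). With any single array left out the difference was -0.92 to -0.78 and no longer passed (limma adjusted p from 0.0651 to 0.334). A rough brightness, read from the rounding steps of the stored numbers, put 44 of the 49 members in the brightest of 3 classes (log2 8 to 16), the other 5 in the middle class (4 to 8) and 0 in the dimmest. Of all genes, 6458 of 19775 were in the brightest class. Of 8 colon epithelial markers, 6 were in that class, EPCAM and CDH1 among them, while KRT20, a marker of differentiated colon cells, was in the dimmest. The mean of the 8 was -0.04 in all 3 control arrays and 0.01 to 0.05 in the SDC1 siRNA arrays, with 7 of 8 above 0 in difference. Of all genes 48% were below 0 in difference, and of the brightest class 56.1%. Both measured leukocyte markers, CD3E and PTPRC, were below the brightest class. COL1A1 and COL1A2 of 6 fibroblast markers and VWF and CDH5 of 3 endothelial markers were also in the brightest class. The mean of the endothelial markers was -0.18 to -0.11 in the control arrays and 0.06 to 0.11 in the SDC1 siRNA arrays. That of the fibroblast markers was -0.02 to 0.19 and -0.07 to -0.01, over differences that went opposite ways: COL1A2, DCN and COL1A1 were at 0.37, 0.10 and 0.04, and LUM, COL3A1 and PDGFRB at -0.62, -0.29 and -0.24. No marker of any list passed an adjusted p of 0.05 (lowest limma adjusted p = 0.165, for COL1A2). The part of these marker lists in the results was not tested.

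The cell cycle genes showed no change that passed the test. Of the 49 members, 0 passed a limma adjusted p of 0.05 over all 19775 genes, of which 0.0253% passed, and the lowest adjusted p among members was 0.263 (E2F7). The differences between SDC1 siRNA and control siRNA, on the log2 scale, ran from -0.31 (E2F7) to 0.18 (KIF11). Their median was -0.019, beside 0.0060 for all genes and -0.013 for all genes of the brightest class. The median of the members was 0.0082 without control replicate 2 and -0.048 without control replicate 3. It was -0.040 without SDC1 siRNA replicate 3 and -0.0091 without SDC1 siRNA replicate 1. For 36 of the 49 members the difference was smaller than 0.1 in size (73.5%, beside 59.7% of all genes and 67.6% of the brightest class). At an unadjusted p under 0.05 there were 4 members lower, E2F7, CDC45, E2F8 and CENPF, and 0 higher. That is 8.16% of the members lower, where 5.15% of all genes were lower and 5.37% higher by the same rule. Of these 4, CDC45 and E2F8 had only 1 probe set each, of the middle brightness class. The count of lower members depended on single arrays. For the G1/S genes it was 1 without control replicate 2 or without SDC1 siRNA replicate 1. For the G2/M genes it was 1 without control replicate 1 and 0 without any of the other 5 arrays. Without control replicate 2, KIF11 was higher by the same rule (limma unadjusted p = 0.0276). The 95% intervals had a median reach of 0.17 on either side and lay within 0.5 of zero in 48 of 49 members. For E2F8 the interval reached down to -0.58.

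**Figure D1:**
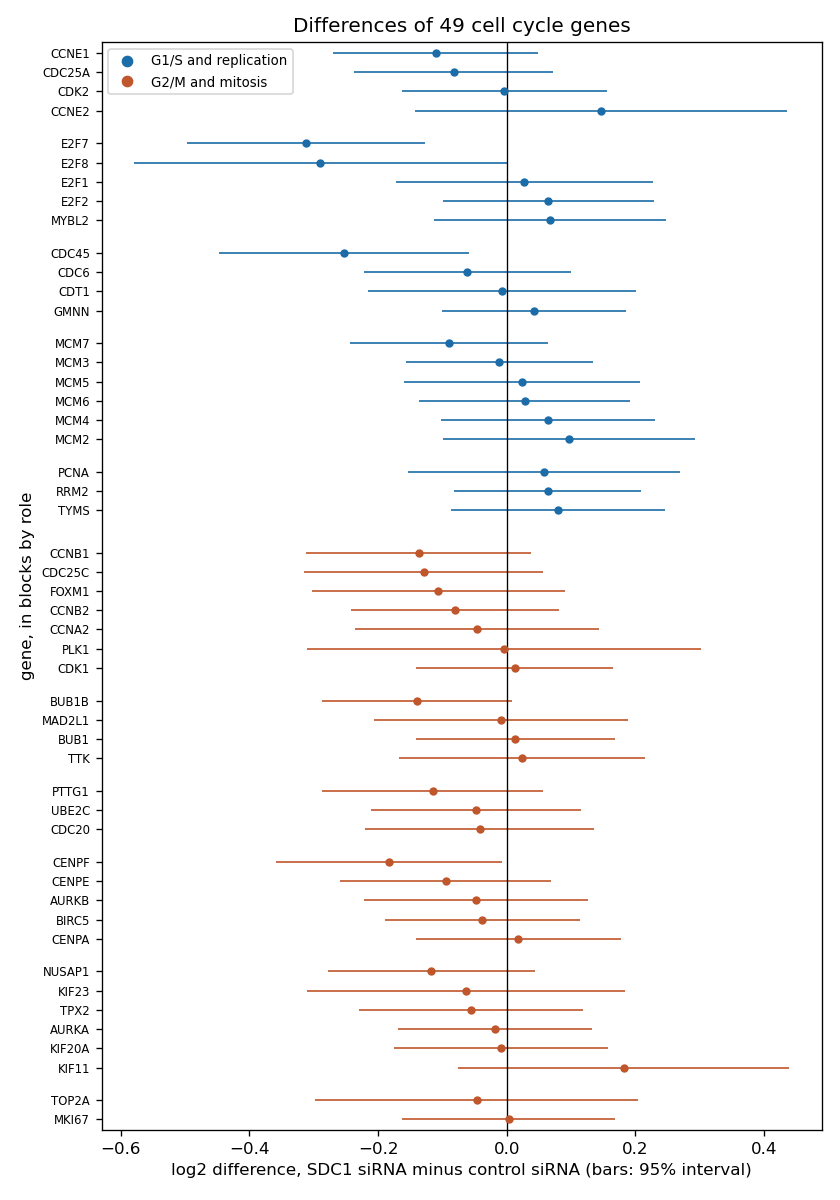
Log2 difference between SDC1 siRNA and control siRNA (x axis) for each of the 49 genes (y axis, in blocks by role), with points for the fitted difference and bars for the 95% interval. Intervals of E2F7, CDC45, E2F8 and CENPF lie below 0, and those of the other 45 genes include it.

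The atypical repressors of the E2F family had the lowest values among the G1/S genes. E2F7 and E2F8 switch E2F targets off again late in S phase and are E2F targets themselves. E2F7 was at 0.18, 0.33 and 0.08 in control replicates 1, 2 and 3 and at -0.08, -0.12 and -0.15 in SDC1 siRNA replicates 1, 2 and 3. All 3 control arrays were higher, and the groups did not overlap. The difference was -0.31 ± 0.08 (standard error), or 1.24-fold lower, and did not pass over all genes (limma adjusted p = 0.263). It rested on 1 of the 2 E2F7 probe sets, and the dimmer one was at 0.19 ± 0.13. The mean of both gave -0.06.

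E2F8 was at 0.04, 0.50 and 0.04 in the control arrays and at -0.04, -0.20 and -0.05 in the SDC1 siRNA arrays. Control replicate 2 was far above the other two, and the groups did not overlap. The difference of -0.29 ± 0.13 (limma adjusted p = 0.475) was -0.14 without control replicate 2. The activators E2F1 and E2F2, which start the S phase program, were at 0.03 ± 0.09 and 0.06 ± 0.07. MYBL2, which encodes the B-Myb factor made at G1/S, was at 0.07 ± 0.08. In these 3 genes the groups overlapped.

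Among the genes that license and fire origins, CDC45 stood lowest. CDC45 joins the MCM ring and the GINS complex to form the active replicative helicase. It was at 0.03, 0.30 and 0.22 in control replicates 1, 2 and 3 and at -0.13, -0.03 and -0.05 in the SDC1 siRNA replicates. The groups did not overlap, although control replicate 1 lay only slightly above SDC1 siRNA replicate 2. The difference of -0.25 ± 0.09 did not pass (limma adjusted p = 0.36). With 1 array left out it ran from -0.33 (without control replicate 1) to -0.20 (without control replicate 2). CDC6 and CDT1, which load the MCM ring on origins, were at -0.06 ± 0.07 and -0.01 ± 0.09, and GMNN, the geminin inhibitor of CDT1, was at 0.04 ± 0.06. GMNN was 1 of only 2 members in which all SDC1 siRNA arrays lay above all control arrays, as in 8.21% of all genes. Its highest control array was at -0.0044 and its lowest SDC1 siRNA array at 0.0044. The 6 MCM subunits, the ring itself, ran from -0.09 ± 0.07 for MCM7 to 0.10 ± 0.09 for MCM2, and 4 of them were above 0.

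MCM7 was at 0.08, 0.00 and 0.04 in the control arrays and at -0.09, 0.01 and -0.07 in the SDC1 siRNA arrays, with overlap between the groups. The genes that supply DNA synthesis all lay slightly above 0. PCNA, the sliding clamp of the polymerases, was at 0.06 ± 0.09. RRM2, the ribonucleotide reductase subunit, and TYMS, thymidylate synthase, were at 0.06 ± 0.06 and 0.08 ± 0.07. RRM2 was the second member with every SDC1 siRNA array above every control array, by a gap smaller than its standard error.

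The cyclin E and CDK2 group went different ways. CCNE1, which encodes cyclin E1, was at 0.07, 0.01 and 0.00 in the control arrays and at -0.13, -0.00 and -0.11 in the SDC1 siRNA arrays. The groups did not overlap, but control replicate 3 and SDC1 siRNA replicate 2 were next to each other, and the difference was -0.11 ± 0.07 (limma adjusted p = 0.629), or -0.05 with its dimmest probe set averaged in. CDC25A, the phosphatase that activates CDK2, was at 0.11, 0.02 and 0.01 against -0.09, -0.02 and -0.01 (difference -0.08 ± 0.07), and -0.05 without control replicate 1. CCNE2, which encodes cyclin E2, was at 0.15 ± 0.13, with wide spread inside each group. Both CCNE2 probe sets gave 0.15. CDK2 itself was at -0.00 ± 0.07.

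**Figure D2:**
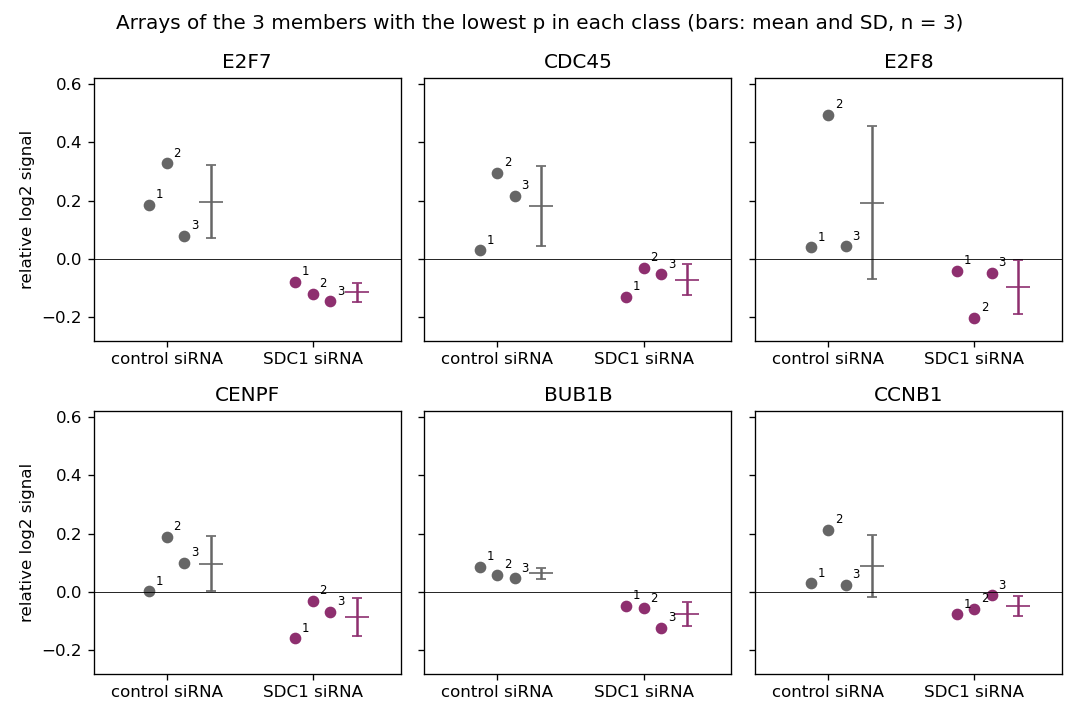
Relative log2 signal (y axis) of 6 genes in each array, by siRNA group (x axis), with replicate numbers beside the points and bars for the mean and SD (n = 3). The genes are the 3 with the lowest p in each class, a choice that favours groups without overlap. Control arrays lie above SDC1 siRNA arrays in all 6 genes, as in 9 of the 49 members, 8.45% of all genes and 11.4% of the brightest class. Control replicate 2 is the highest array for each gene but BUB1B.

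Of the G2/M and mitosis genes, 21 of 27 were below 0 and 6 above, with a median difference of -0.047. CENPF, a kinetochore and nuclear matrix protein made in G2, stood lowest. It was at 0.00, 0.19 and 0.10 in control replicates 1, 2 and 3 and at -0.16, -0.03 and -0.07 in the SDC1 siRNA replicates. The groups did not overlap, and control replicate 1 was the nearest to the SDC1 siRNA arrays. The difference was -0.18 ± 0.08 (limma adjusted p = 0.459). With 1 array left out it ran from -0.23 (without control replicate 1) to -0.14 (without control replicate 2). The CENPF probe sets in the brightest class gave -0.23 and -0.13, and the dim one gave -0.16. CENPE, the kinetochore motor, was at -0.10 ± 0.07, and CENPA, the centromeric histone, at 0.02 ± 0.07. The passenger complex kinase AURKB and its partner BIRC5 (survivin) were at -0.05 ± 0.08 and -0.04 ± 0.07.

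The spindle checkpoint delays anaphase until all chromosomes are attached. Among its 4 genes BUB1B, which encodes BubR1, had the lowest value. BUB1B was at 0.09, 0.06 and 0.05 in the control arrays and at -0.05, -0.06 and -0.12 in the SDC1 siRNA arrays. The control arrays lay close together and above all SDC1 siRNA arrays, with a difference of -0.14 ± 0.06 that did not pass (limma adjusted p = 0.5). The kinases BUB1 and TTK and the inhibitor MAD2L1 were at 0.01 ± 0.07, 0.02 ± 0.08 and -0.01 ± 0.09.

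Of the 7 genes of mitotic entry, 6 were below 0. CCNB1, which encodes cyclin B1, was at 0.03, 0.21 and 0.02 in the control arrays and at -0.08, -0.06 and -0.01 in the SDC1 siRNA arrays. The groups did not overlap, and control replicate 2 stood apart from the other controls. The difference was -0.14 ± 0.08 (limma adjusted p = 0.577) and -0.08 without that array. CCNB2 (cyclin B2) was at -0.08 ± 0.07 and CCNA2 (cyclin A2) at -0.05 ± 0.08. CDC25C, the phosphatase that activates CDK1, was at 0.06, -0.03 and 0.11 against -0.20, 0.03 and -0.07 (difference -0.13 ± 0.08), with overlap. It was -0.07 without SDC1 siRNA replicate 1. Without the CDC25C probe sets of type _s_at only a dimmer one was left, and it gave -0.03 ± 0.15. The transcription factor FOXM1 was at -0.11 ± 0.09 and the kinase PLK1 at -0.00 ± 0.13. CDK1 itself, measured by 3 bright probe sets, was at 0.01 ± 0.07 with an interval from -0.14 to 0.16.

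Spindle and exit genes lay in the same narrow range, apart from KIF11. KIF11, the motor that pushes spindle poles apart, was at -0.30, 0.09 and -0.11 in the control arrays and at 0.03, -0.03 and 0.23 in the SDC1 siRNA arrays. It had the highest difference of all members, 0.18 ± 0.11 (limma adjusted p = 0.624), but the groups overlapped. It was at 0.08 without control replicate 1, 0.28 without control replicate 2 and 0.11 without SDC1 siRNA replicate 3. NUSAP1, a microtubule bundling protein, was at 0.04, 0.07 and -0.00 against -0.12, -0.13 and 0.01 (difference -0.12 ± 0.07), and its probe set of no _s_at type gave -0.07. TPX2, which activates Aurora A, was at -0.06 ± 0.08, AURKA (Aurora A) at -0.02 ± 0.07, and the cytokinesis motors KIF20A and KIF23 at -0.01 ± 0.07 and -0.06 ± 0.11. The 3 genes of anaphase and exit were PTTG1 (securin) at -0.12 ± 0.08, CDC20, the activator of the anaphase-promoting complex, at -0.04 ± 0.08, and its ubiquitin-conjugating enzyme UBE2C at -0.05 ± 0.07. The proliferation marker MKI67 (Ki-67) was at 0.00 ± 0.07, with an interval from -0.16 to 0.17. TOP2A, the topoisomerase that untangles sister chromatids, was at -0.05 ± 0.11.

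**Figure D3:**
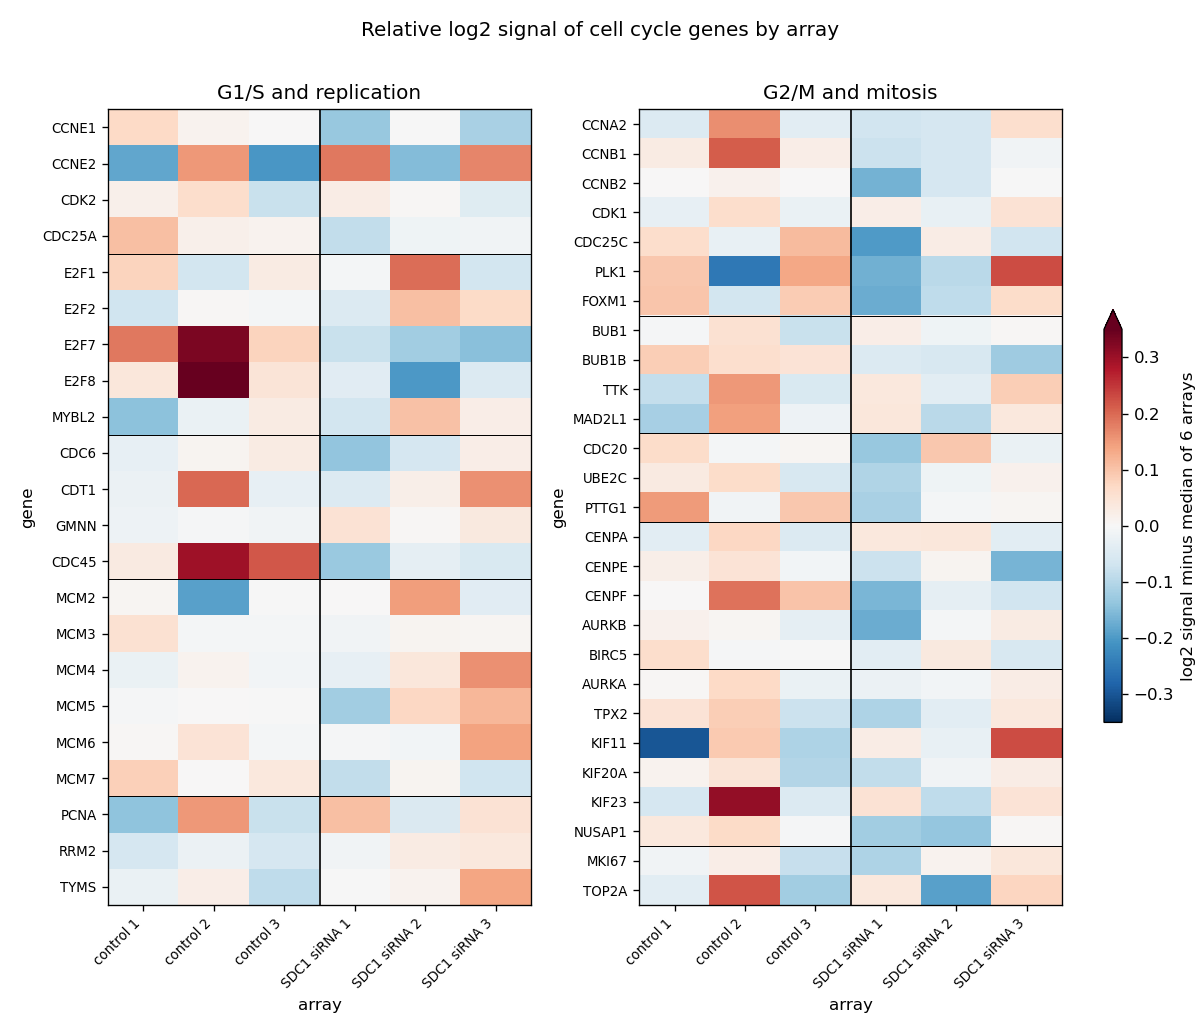
Relative log2 signal (colour, red above and blue below the median of the 6 arrays) of the 22 G1/S and 27 G2/M genes (y axis, lines between roles) in each array (x axis). Control replicate 2 holds the highest value of 23 genes and SDC1 siRNA replicate 1 the lowest of 21, and E2F8 in control replicate 2 (0.50) is beyond the colour scale.

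The 2 classes were compared by their medians and counts, and the difference between them was not tested. The median difference was 0.025 for the G1/S genes and -0.047 for the G2/M genes, beside 0.0060 for all genes and -0.013 for the brightest class. The mean difference was -0.021 for the G1/S genes, opposite in sign to their median, and -0.047 for the G2/M genes. The G1/S median was 0.013 without control replicate 1, 0.0014 without SDC1 siRNA replicate 2 and -0.00045 without SDC1 siRNA replicate 3, and -0.019 with every probe set of a gene averaged. The G2/M median was -0.023 without control replicate 2, -0.024 without SDC1 siRNA replicate 1, -0.078 without control replicate 3 and -0.085 without SDC1 siRNA replicate 3, so it stayed below 0 with each array left out. Of the G1/S genes 10 of 22 were below 0 (45.5%) and of the G2/M genes 21 of 27 (77.8%), beside 48% of all genes and 56.1% of the brightest class. This count rested in part on control replicate 2: without it 15 of the 27 G2/M genes were below 0, while leaving out any other array gave 17 to 25. The G1/S count was 9 to 11 with each array left out. Other counts went the other way between the classes. At an unadjusted limma p under 0.05, 13.6% of the G1/S genes and 3.70% of the G2/M genes were lower, beside 5.15% of all genes. The share of members in which all SDC1 siRNA arrays lay below all control arrays was 18.4% (9 of 49). By class it was 22.7% of the G1/S genes (5 of 22) and 14.8% of the G2/M genes (4 of 27). Of all genes 8.45% did so, and of the brightest class 11.4%. All SDC1 siRNA arrays lay above all control arrays in 4.08% of the members (2 of 49, GMNN and RRM2). Of all genes 8.21% did so, and of the brightest class 7.14%. For each such gene the exact permutation p (two-sided) was 0.1, which is the smallest that 3 arrays a group allow.

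Single arrays moved more than the groups did. Control replicate 2 held the highest value of 17 of the 27 G2/M genes (63%) and SDC1 siRNA replicate 1 the lowest of 12 (44.4%). Among the G1/S genes these counts were 6 and 9 of 22. For all genes of the brightest class control replicate 2 was highest in 35% and SDC1 siRNA replicate 1 lowest in 25.2%, and for all genes in 22.6% and 19.1%. The median of the G2/M genes was 0.01, 0.06 and -0.02 in control replicates 1, 2 and 3 and -0.08, -0.03 and 0.02 in SDC1 siRNA replicates 1, 2 and 3. The groups therefore overlapped, with SDC1 siRNA replicate 3 above 2 of the control arrays. For the G1/S genes the array medians ran from -0.03 in SDC1 siRNA replicate 1 to 0.02 in SDC1 siRNA replicate 3. The spread inside the groups was no wider than usual, with a median within-group SD of 0.08 for the members and 0.11 for all genes.

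**Figure D4:**
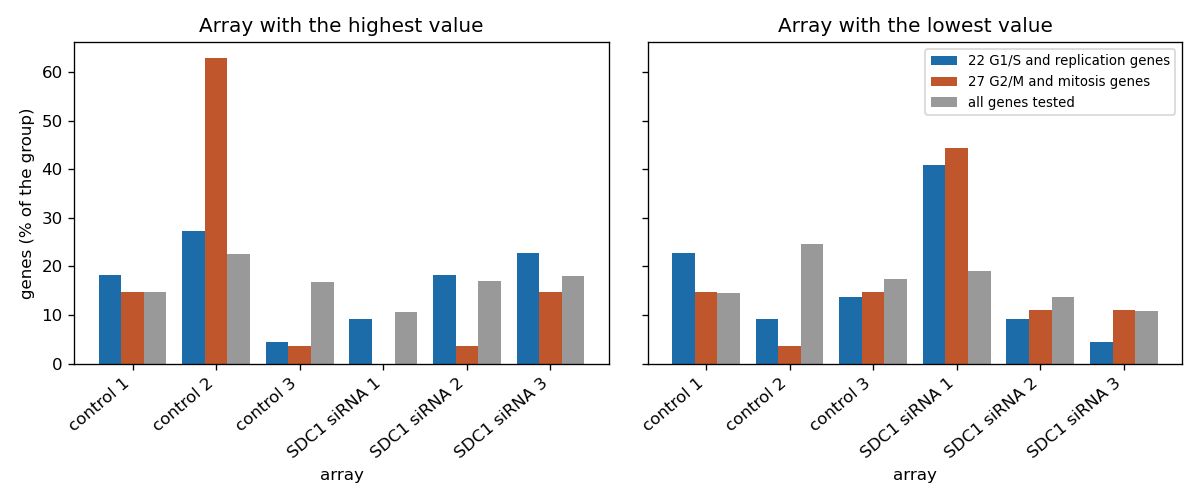
Share of genes (y axis, percent) whose highest value (left) or lowest value (right) fell on each array (x axis), for the G1/S genes, the G2/M genes and all genes. Control replicate 2 is highest for 63% of the G2/M genes and for 22.6% of all genes.

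Probe sets of the same gene were also compared. They are read from the same arrays, so gaps between them do not measure the spread between arrays. Of the 49 members, 19 had 1 probe set, and the rest had up to 5. Probe sets of the brightest class differed by at most 0.17 within a gene (CDC6, at 0.02 and -0.14). Larger gaps involved dimmer probe sets. For TYMS the bright probe sets gave 0.09 and 0.07 and the dim one -0.25, for E2F2 the dim one gave 0.36 beside 0.07 and 0.05, for KIF23 and CDC25A dimmer ones gave -0.28 and -0.22, and for BUB1 the 2 in the dimmest class gave -0.27 and 0.16 beside 0.01. Of all 101 member probe sets, 0 passed when tested singly, as did 0% of all 54613 (limma), of which 8.33% were at an unadjusted p under 0.05.

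**Figure D5:**
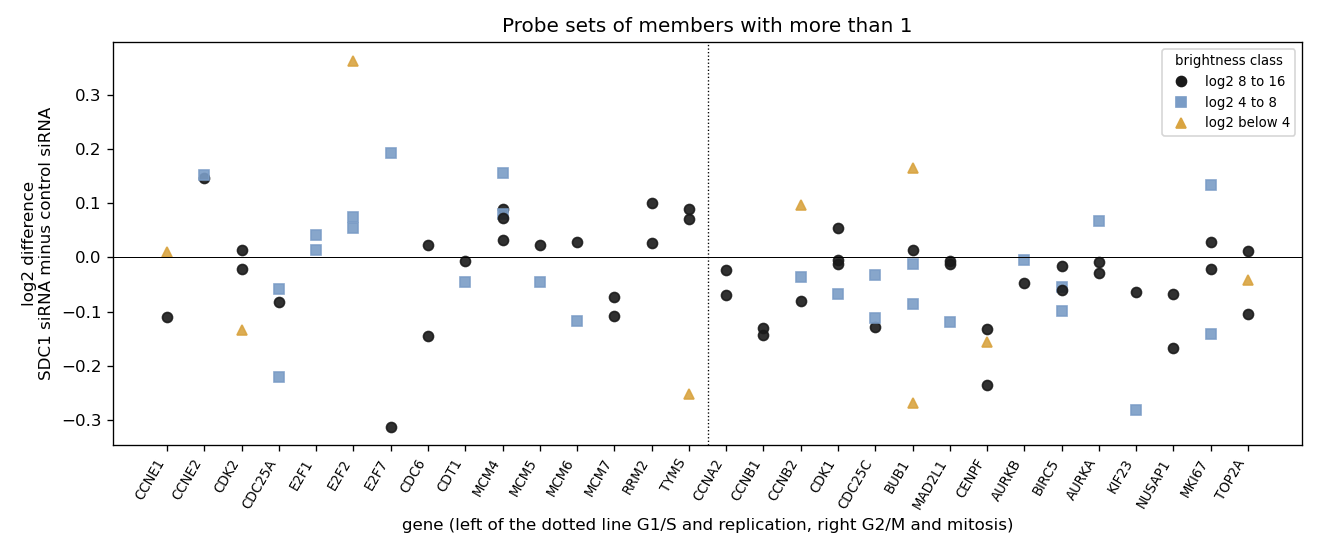
Log2 difference between SDC1 siRNA and control siRNA (y axis) of every probe set of the 30 members with more than 1 (x axis), with the marker and colour giving the brightness class. Probe sets of the brightest class run from -0.31 (E2F7) to 0.15 (CCNE2), and the widest gaps within a gene involve dimmer ones.

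Values were also set beside the promoter letters, as a description only. The 14 G2/M genes with the CHR letters had a median difference of -0.044 and the 7 without them -0.048. The 12 G1/S genes with an E2F core, CDC25A and MCM7 among them, ran from -0.09 to 0.10 with a median of 0.027. The 5 without it ran from -0.31 to 0.07. E2F7, CDC45 and CCNE1 were among these 5, whose median was -0.11. That these letters are missing from a window says nothing of whether E2F factors act on the gene.

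Regulators outside the list showed no change that passed either. Of 53 such genes (D cyclins and their kinases, CDK inhibitors, pocket proteins, checkpoint kinases and licensing factors), 51 were measured and 0 passed in either direction. At an unadjusted p under 0.05 there were 5 lower and 1 higher, or 9.80% lower where 5.15% of all genes were. The median difference was -0.03, beside 0.0060 for all genes and -0.013 for the brightest class. Of the 51, 70.6% were below 0, beside 48% of all genes and 56.1% of the brightest class. The 4 with the lowest p follow. CCND2, the cyclin D2 gene, was at -0.31 ± 0.07 (limma adjusted p = 0.211), -0.19 as the mean of its 4 probe sets. TFDP2, a dimerization partner of E2F factors, was at -0.27 ± 0.07 (-0.21 as the mean of 4). The DNA damage kinase ATM was at -0.30 ± 0.09 (-0.13 as the mean of 6) and the pocket protein RBL1 (p107) at -0.26 ± 0.11 (-0.14 as the mean of 4). The 3 named first had groups that did not overlap, while the RBL1 groups overlapped. Of the 51 genes, 7 had all SDC1 siRNA arrays below all control arrays (13.7%), beside 8.45% of all genes and 11.4% of the brightest class. In the other direction there were 2 (3.92%), beside 8.21% of all genes.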

How the data were processed

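The authors deposited log2 values of 6 Affymetrix arrays. Per the submitters' processing notes the tool was RMA, a method that subtracts background, equalizes array distributions and combines the probes of a probe set. All 54675 probe sets had a median of 0 across arrays, a centring that no source used here describes. It removes absolute levels. Stored numbers from 8 to 16, 4 to 8 and below 4 differ in step size, which gave a rough brightness class (tolerance 4e-08). Of non-control probe sets, 41091 had 1 symbol, 1801 several and 11721 none in the platform annotation. Symbols were updated by Entrez identifier (99.9% matched). A gene was the mean of its probe sets in its brightest class.

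The test was limma's moderated linear model (version 3.58.1, run under R 4.3.3; lmFit, then eBayes) with group as the only term, adjusted by Benjamini-Hochberg over 19775 genes. Differences are SDC1 siRNA minus control siRNA. Errors are standard errors. On simulated arrays of this size, 100% of 50 genes changed by 1 (log2) and 80% of 50 changed by 0.5 were called, with 11 unchanged genes, and those rates need not hold where fewer genes change. Members, lists and tests were chosen with earlier results of these data known. Per-array values are given for the 6 members of each class with the lowest p, and members and SDC1 were named by rule. The labels name no batch.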

Additional observations from a re-analysis of the deposited data

How the results depend on the processing

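Of the 49 members, 0 passed an adjusted p of 0.05 in every setting run: each array left out, the replicate block, array weights, centred arrays, quantile normalization, robust eBayes, averaging every probe set of a gene, dropping probe sets of the types _x_at and _s_at (38 members left), only genes of the 2 brighter classes, single probe sets, a 1.5-fold minimum and a threshold of 0.01. The lowest adjusted p of a member in the gene fits was 0.138, with array weights. Deviations of same-numbered arrays from their group means had correlations of -0.01, -0.26 and -0.12, beside -0.14 to 0.22 for arrays of unlike number. Such deviations sum to 0 inside each group, which constrains the correlations. They showed no pairing by replicate number but cannot settle whether there was one. With the replicate number as a block, 0 genes passed in all and SDC1 had a limma adjusted p = 0.107 at -0.84. In that fit 0 G2/M members were lower at an unadjusted p under 0.05.

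Among all genes, 5 passed in the fit reported. The count was 9 after quantile normalization, 36 with array weights, 3 on averaging every probe set, 10 among the 2 brighter classes, 0 for single probe sets, 0 at an adjusted p of 0.01, and 0 to 1 with each array left out (1 without control replicate 3). SDC1 ran from -0.92 to -0.78 with each array left out (adjusted p 0.0651 to 0.334), and its single probe sets gave -0.83 and -0.85 (adjusted p = 0.121 each). At an unadjusted p under 0.05, the count of lower G1/S members was 3, 1 to 3 with each array left out (1 without control replicate 2 or SDC1 siRNA replicate 1), and 1 without _x_at and _s_at probe sets. The G2/M count was 1, 0 to 1 with each array left out (1 without control replicate 1) and 0 without those types. With array weights it was also 1, with BUB1B (limma unadjusted p = 0.0465) in place of CENPF (0.0832). KIF11 was higher by that rule with array weights (limma unadjusted p = 0.0409) and without control replicate 2 (0.0276). Signs turned for 2 named members, in the dimmer probe sets of E2F7 (0.19) and CCNE1 (0.010). The cause of these shifts was not tested. The median of the G1/S members was -0.019 on averaging every probe set, against 0.025 in the fit reported. With 3 arrays a group, differences much under the intervals' median reach of 0.17 could not be seen even without adjustment over genes. By the adjusted test larger ones did not pass either, such as E2F7 at -0.31 (limma adjusted p = 0.263). Of the 5 genes that passed, the smallest difference in size was -0.72 (MPDZ).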
